A study of Homo sapiens with 3 samples.

Results

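The 10 genes described here encode the cargo and the processing machinery of dense-core granules and the enzymes that make catecholamines: the granins CHGA, CHGB, SCG2 and SCG3, the processing genes SCG5, PCSK1 and CPE, and the enzymes TH, DDC and DBH. They were listed by name, out of 62754 genes in the tables, and the list was chosen by measured values: the strong variation of CHGA and TH between the replicates. The spread between the libraries is therefore given below as a description. Polyadenylated RNA was sequenced from 3 replicates of wild-type primitive neural progenitor cells (pNPCs). These self-renewing cells of an early neural stage came from the established human embryonic stem cell line H1. All 3 replicates are 1 group with 1 genotype, and no treated or later-stage samples are analysed here. The growth protocol in the labels gives a Neurobasal and DMEM/F12 medium with N2 and B27-RA, with FGF2 at 20 ng/ml, CHIR99021 at 3 µM, hLIF at 10 ng/ml, SB431542 at 2 µM and the ROCK inhibitor Y-27632 at 10 µM. It describes pNPCs in general, from both induced and embryonic stem cells. Whether the replicates came from separate cultures is not stated in the labels, so a p-value here covers the spread of these samples alone, and that spread may be technical. The pNPC label was set against some of the 7 progenitor markers listed. NES, which encodes nestin, had a mean of 181 ± 21.1 TPM and VIM 1912 ± 194 TPM (SD, n = 3), while PAX6 stood at 0.44 ± 0.34 TPM. SOX2, SOX1, HES5 and MSI1 are given below. Their ratios of the highest to the lowest library were 2.11, 2.49, 9.39 and 1.33, against 1.242 for NES and 1.225 for VIM.

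Dense-core granules are the organelles in which neuroendocrine cells and many neurons store peptide hormones, neuropeptides and, in chromaffin cells and sympathetic neurons, catecholamines. Granins are acidic proteins that condense in the trans-Golgi network and help to form the granule. Prohormones are cut there by prohormone convertases and trimmed by carboxypeptidase E. Catecholamines arise from tyrosine in steps: tyrosine hydroxylase makes L-DOPA, aromatic L-amino acid decarboxylase makes dopamine, and dopamine beta-hydroxylase, an enzyme of the granule lumen, makes noradrenaline. In the embryo, cells that express both TH and DBH include the sympathetic and chromaffin cells of the neural crest and noradrenergic neurons of the hindbrain, while midbrain dopamine neurons express TH and DDC.

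The cyclic AMP response element (CRE), TGACGTCA, is a well-known element of neuroendocrine promoters. It was found in 2 of the 7 members that could be searched, of which 1 shared the pattern of TH and the other did not. TH itself could not be searched, so whether the element goes with the pattern was not tested. RefSeq promoter windows, from 250 bases before to 50 bases after a gene start (GRCh38.p14), were matched for 7 of the 10 members: CHGA, SCG3, SCG5, PCSK1, CPE, DDC and DBH. CHGB, SCG2 and TH had no entry. The search took TGACGTCA, which reads the same on both strands, and found it in 2 of the 7, CHGA and PCSK1. It was present in 649 of all 35116 windows (1.85%). The 30 bases around each match are given 5′ to 3′ on the strand of the gene, with the element in capitals.
CHGA: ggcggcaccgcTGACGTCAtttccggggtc
PCSK1: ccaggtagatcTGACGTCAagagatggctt
The CHGA stretch lies at chr14:92923085-92923114 on the plus strand, and its element begins 54 bases before the start on which the RefSeq window is set. The RefSeq span of the gene, given below, begins farther upstream and takes in the stretch, which also overlaps a CHGA exon in GENCODE release 29. The PCSK1 stretch lies at chr5:96433307-96433336 on the minus strand, with its element beginning 77 bases before the start and outside the annotated exons of the gene. The shorter core TGACG, searched on both strands and contained in every full match, occurred in windows of 6 of the 7 members, all but DDC, and in 24.6% of all windows. A member was counted if any window of it held the letters, whereas the percentages are over single windows, so they are not compared. A match is a description of the letters, not a site of binding. CHGA had its highest level in replicate 1, whereas PCSK1 had its highest level in replicate 3, as described below.

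Levels are given in TPM, a unit scaled for transcript length and library size, beside the expected count, the estimated number of reads of a gene. Libraries held 30038114 to 38400092 expected counts. A gene is called detected when it reached 1 TPM in all 3 libraries, as 14418 of the 62754 genes (23%) and 5 of the 10 members did. The detected members were CHGA, CHGB, SCG3, CPE and DDC. SCG2, PCSK1, SCG5, TH and DBH fell below 1 TPM in at least 1 library. Intervals below are exact Poisson 95% intervals, or exact binomial ones for the ratio of 2 counts, and they cover counting error only.

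**Figure D1:**
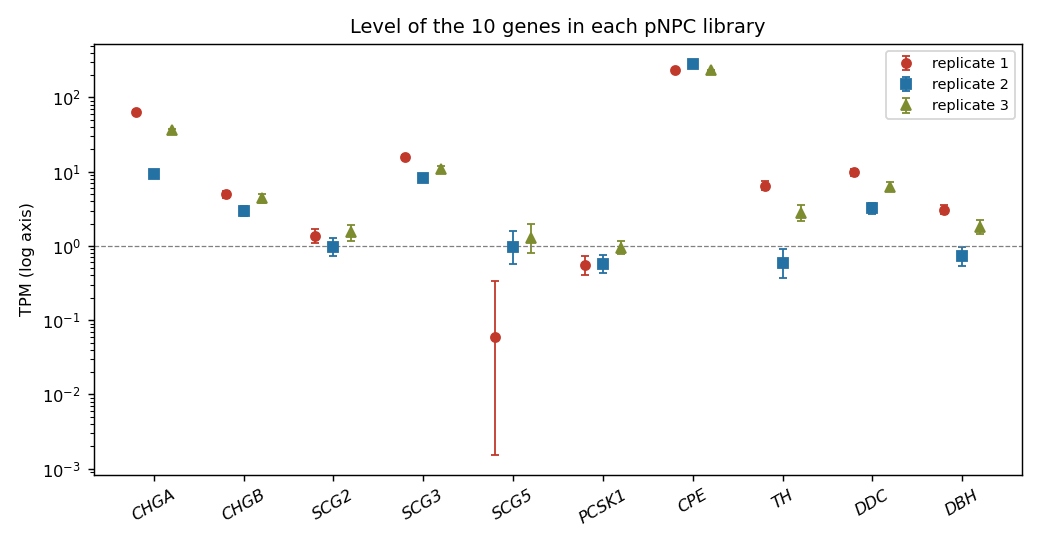
TPM (log axis) of each of the 10 genes in pNPC replicates 1, 2 and 3, with Poisson 95% intervals of the counts as bars and a dashed line at 1 TPM. CPE is at 231 to 281 TPM in every library, while CHGA spans 9.43 to 64.3 and TH 0.59 to 6.5 TPM.

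Among the granins, CHGA was the most abundant and the most variable. CHGA (ENSG00000100604.13, chromosome 14, 92922664 to 92935285, GRCh38), which encodes chromogranin A, the classic blood marker of neuroendocrine tumours, had 64.3 TPM in replicate 1, 9.43 in replicate 2 and 35.9 in replicate 3. The counts behind these levels were 2824, 411 and 1195, with intervals of 62.0 to 66.8, 8.54 to 10.4 and 33.9 to 38 TPM that do not overlap. Replicate 1 was thus 6.82 times replicate 2 (counting interval 6.15 to 7.58), and the ratio of the highest to the lowest library was 1.79 without replicate 2.

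CHGB (ENSG00000089199.10, chromosome 20, 5911510 to 5925353), which encodes chromogranin B, stood far lower, at 4.95, 2.94 and 4.40 TPM in replicates 1, 2 and 3 (counts of 282, 164 and 196). SCG3 (ENSG00000104112.9, chromosome 15, 51681503 to 51721026), a granin that binds chromogranin A and cholesterol-rich granule membrane, had 15.8, 8.28 and 11 TPM (counts of 1167, 618 and 626). Both had their highest level in replicate 1 and their lowest in replicate 2, as CHGA did, with a highest-to-lowest ratio of 1.68 for CHGB (1.38 to 2.05) and 1.90 for SCG3 (1.72 to 2.10). The intervals of CHGB overlapped between replicates 1 and 3, and those of SCG3 overlapped between no libraries.

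SCG2 (ENSG00000171951.5, chromosome 2, 223596940 to 223602361), the secretogranin II gene and precursor of the peptide secretoneurin, was near the limit of detection. It had 1.37, 0.97 and 1.52 TPM from 77, 55 and 67 counts. Replicate 2 was again the lowest, replicate 3 had 1.57 times its level (1.08 to 2.28), and the Poisson intervals of the 3 libraries all overlapped.

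The ratios of the granins hold CHGA, whose spread was among the values that chose the list, so they are given as a description. CHGA stood at 13.0 times CHGB in replicate 1, 3.21 times in replicate 2 and 8.16 times in replicate 3. Against SCG3 it stood at 4.08, 1.14 and 3.25 times. The 4 granins summed to 86.4, 21.6 and 52.9 TPM.

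The processing genes did not share this pattern. CPE (ENSG00000109472.14, chromosome 4, 165379008 to 165498547), which removes basic residues from the ends of cut peptides and also acts in the sorting of cargo, was the most abundant member by far, at 234, 281 and 231 TPM (counts of 12991, 13065 and 8081). Its highest library was replicate 2, where CHGA was lowest, and its highest-to-lowest ratio was only 1.22. CPE was 3.63 times CHGA in replicate 1, 29.8 times in replicate 2 and 6.43 times in replicate 3.

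PCSK1 (ENSG00000175426.11, chromosome 5, 96390333 to 96433248), the prohormone convertase that makes the first cuts in many precursors, was scarce, at 0.55, 0.57 and 0.95 TPM from 52, 54 and 94 counts. Replicate 3 was its highest library, 1.73 times replicate 1 (1.22 to 2.47). SCG5 (ENSG00000166922.9, chromosome 15, 32641710 to 32697092) encodes 7B2, the chaperone of the convertase PCSK2, and had 0.06, 0.96 and 1.29 TPM in replicates 1, 2 and 3. These rest on 1, 15.6 and 20.7 expected counts, so the ratio of replicate 3 to replicate 1, 21.5, has a counting interval of 3.5 to 900.3. SCG5 did not pass the filter on low counts and entered no test, and its lowest library was the one where the granins CHGA, CHGB and SCG3 were highest.

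The TPM of a gene also depends on its deposited transcript length, a mean over its transcripts weighted by their abundance. Over all genes, this length weighted by counts averaged 2730, 3108 and 3158 bases in replicates 1, 2 and 3, so the libraries differed in it as a whole. CPE had a mean length of 2407, 2041 and 1987 bases in replicates 1, 2 and 3, PCSK1 3935, 3918 and 5136 bases, and SCG5 853, 878 and 1056 bases. They were the 3 members whose length differed at least 1.2-fold between libraries, as did 18.8% of the 17046 tested genes. CPE was highest in replicate 2 in TPM but in replicate 1 in CPM (counts scaled for library size and not divided by length), with 380, 345 and 261 CPM. The lowest library of PCSK1 was replicate 1 in TPM and replicate 2 in CPM, where it had 1.52, 1.43 and 3.04.

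**Figure D2:**
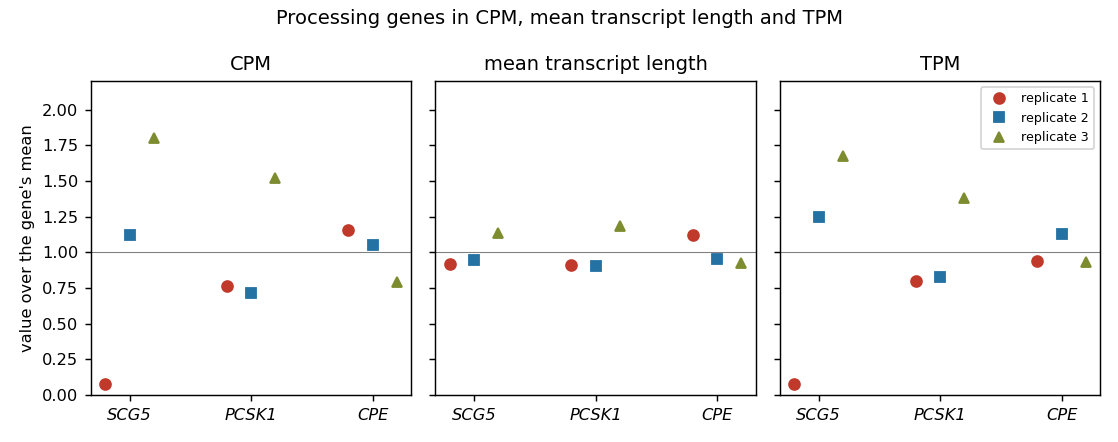
CPM, mean transcript length and TPM of SCG5, PCSK1 and CPE in each library, each divided by the mean of the gene over the 3 libraries. The highest CPE library is replicate 1 in CPM and in length and replicate 2 in TPM, and SCG5 is near 0 in replicate 1 in both CPM and TPM.

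The 3 catecholamine enzymes had the same order of libraries as CHGA. TH (ENSG00000180176.15, chromosome 11, 2163929 to 2171815), the rate-limiting enzyme of the pathway, had 6.5 TPM in replicate 1, 0.59 in replicate 2 and 2.79 in replicate 3, from 211, 21 and 70 counts. Its intervals of 5.65 to 7.44, 0.37 to 0.90 and 2.17 to 3.52 TPM do not overlap. TH in replicate 1 was 11 times that in replicate 2 (7.02 to 18.2), and without replicate 2 the highest-to-lowest ratio was 2.33.

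DDC (ENSG00000132437.18, chromosome 7, 50458442 to 50565405), the decarboxylase that also serves serotonin synthesis, had 9.84, 3.22 and 6.29 TPM (counts of 327, 125 and 185). DBH (ENSG00000123454.12, chromosome 9, 133636363 to 133659329), the step that commits the pathway to noradrenaline, had 3.08, 0.73 and 1.81 TPM (counts of 198, 47 and 91). The highest-to-lowest ratio was 3.06 for DDC (2.48 to 3.79) and 4.22 for DBH (3.06 to 5.93), smaller than for TH, and without replicate 2 it was 1.56 and 1.70. The Poisson intervals overlapped between no libraries for either gene.

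The enzymes' ratios likewise hold members chosen for their spread. DDC was 1.51 times TH in replicate 1, 5.46 times in replicate 2 and 2.25 times in replicate 3, and TH was 2.11, 0.81 and 1.54 times DBH. DDC was 3.19, 4.41 and 3.48 times DBH. CHGA was 9.90, 16 and 12.9 times TH. The 3 enzymes summed to 19.4, 4.54 and 10.9 TPM.

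Among the genes with exons overlapping those of a member in GENCODE release 29, only DBH-AS1 had counts. This antisense gene shares 118 exonic bases with DBH, and without strand information reads from a gene and its antisense partner cannot be told apart. DBH-AS1 had 64, 59 and 58 counts in replicates 1, 2 and 3 and thus did not have the spread of DBH. The antisense genes with exonic overlap at SCG5 and DDC had 0 counts in all 3 libraries.

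By mean TPM the order of the members was CPE (249 ± 28.2, SD, n = 3), CHGA (36.6 ± 27.5), SCG3 (11.7 ± 3.78), DDC (6.45 ± 3.31), CHGB (4.10 ± 1.04), TH (3.29 ± 2.99), DBH (1.87 ± 1.18), SCG2 (1.29 ± 0.28), SCG5 (0.77 ± 0.64) and PCSK1 (0.69 ± 0.23). Only CPE was separated from its neighbour in this order. For the other 8 pairs of neighbours the ranges over the libraries overlapped.

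Whether the members moved together was described with log2 CPM after TMM scaling. In TPM, 6 of the 10 members, CHGA, CHGB, SCG3, TH, DDC and DBH, had the order replicate 1 above replicate 3 above replicate 2. That order was held by 11.3% of the tested genes. In CPM SCG2 joined them, for 7 of 10. Of the 10 members 7 had their lowest TPM in replicate 2 (21.7% of tested genes) and 6 their highest in replicate 1 (24.8% of tested genes). SCG2, SCG5 and PCSK1 were highest in replicate 3 (43.4% of tested genes) and CPE in replicate 2 (31.8%), while SCG5 and PCSK1 were lowest in replicate 1 (56.1%) and CPE in replicate 3 (22.2%). Since the list was drawn up around the spread of CHGA and TH, nothing is read from these shares. The members outside the group in both units were the 3 processing genes.

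The size of the movement was uneven within the group. Against the mean of the other libraries, replicate 1 lay 2.37 higher on the log2 CPM scale for TH, 1.99 for CHGA, 1.55 for DBH, 1.08 for DDC, 0.89 for SCG3, 0.64 for CHGB and 0.32 for SCG2. Replicate 2 lay at -2.65 for TH, -2.40 for CHGA, -1.71 for DBH, -1.20 for DDC, -0.75 for CHGB, -0.71 for SCG3 and -0.61 for SCG2. Replicate 3 lay between -0.19 (SCG3) and 0.40 (CHGA) for these 7 genes. TH and CHGA thus stood apart from the other granins, with DBH and DDC between them. The median over the 9 members that passed the filter was 0.89, -0.75 and 0.16 in replicates 1, 2 and 3. Over all 10 members it was 0.76, -0.73 and 0.22. For all tested genes it was within 0.01 of 0 in each library, where TMM scaling itself tends to hold it. The list was chosen for the spread of CHGA and TH over these libraries, so nothing is read from the difference. In bulk RNA, fewer cells of a type and less RNA per cell cannot be told apart.

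**Figure D3:**
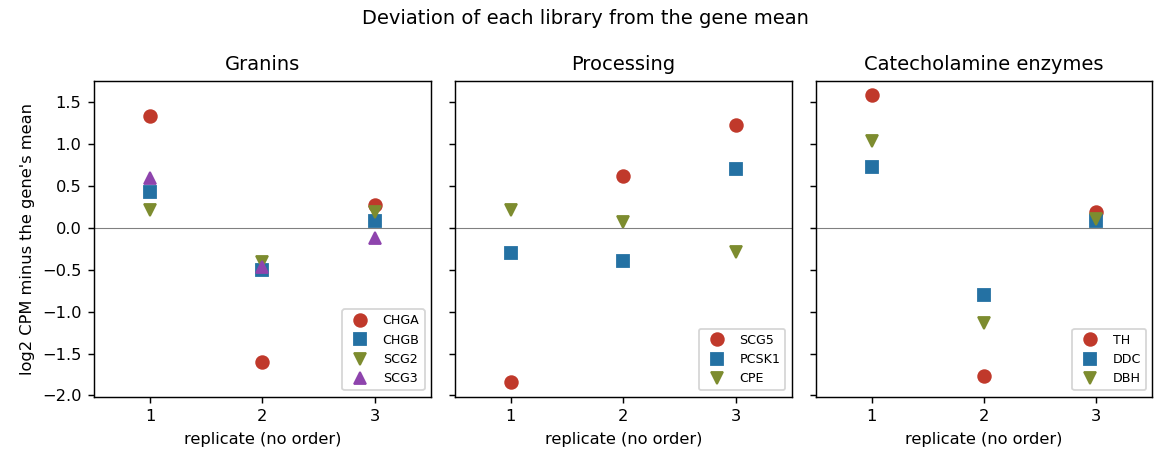
Log2 CPM of each gene minus its own mean over the 3 libraries, for granins, processing genes and catecholamine enzymes; replicates have no order. All granins and enzymes, and also PCSK1, are lowest in replicate 2, while SCG5 is lowest in replicate 1 and CPE in replicate 3. CPE is highest in replicate 1, and PCSK1 and SCG5 are highest in replicate 3.

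Excess spread, meaning more variation between the libraries than genes of like abundance have, was called with edgeR in 271 of the 17046 tested genes (1.59%). Of the 9 members that passed the filter, 2 were called, CHGA and TH, the genes for which the list was drawn up. A TPM ratio of at least 2 between the highest and the lowest library was found for 18% of tested genes and for the members CHGA, TH, DDC, DBH and the untested SCG5. A ratio of at least 4 was found for 2.21% of tested genes and for CHGA, TH, DBH and SCG5. With 1 library left out, CHGA was called without replicate 1 and without replicate 3 but not without replicate 2, and TH was called without replicate 3 but not without replicate 1 or replicate 2.

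**Figure D4:**
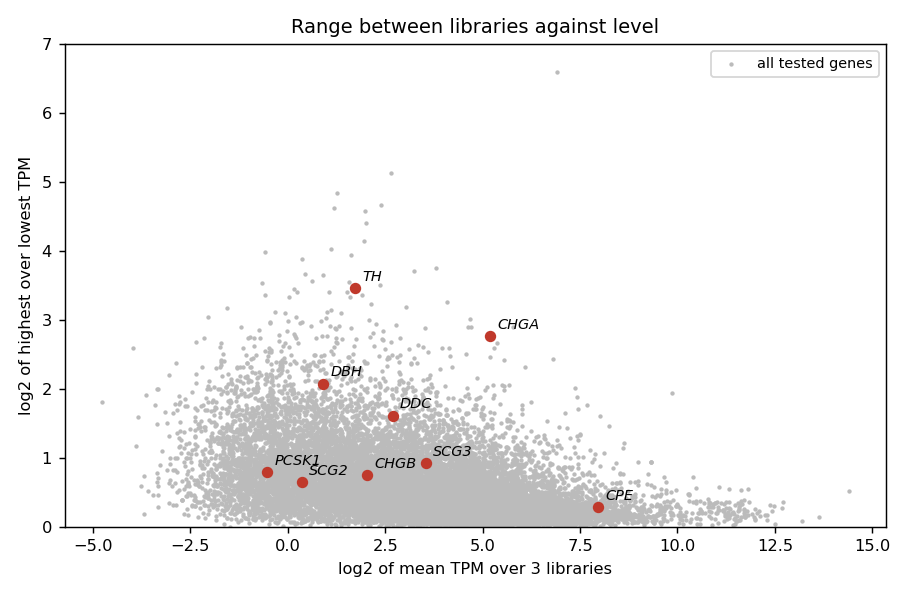
Log2 ratio of the highest to the lowest TPM over 3 libraries against log2 mean TPM, for the 17046 tested genes (grey) and the 9 tested members (red). TH and CHGA lie at the upper edge for their level, and CPE, CHGB, SCG2 and PCSK1 lie within the bulk of the genes.

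Genes whose profiles were most like those of CHGA and TH were found by the distance between log2 CPM profiles centred on each gene's mean, over the same 3 libraries. The 5 nearest to CHGA were DLK1 (distance 0.18), SOX21 (0.22), HES4 (0.26), HES3 (0.31) and TH (0.31). The 5 nearest to TH were HES4 (0.20), CHGA (0.31), DLK1 (0.43), HES3 (0.43) and SOX21 (0.47). CHGA and TH were thus in each other's lists, and the other 4 names were the same in both. The members were chosen for the strong spread of CHGA and TH over these same libraries. The distance also depends on the size of the movement, so genes with the same order but a smaller spread lie farther away. Nothing is therefore read from the nearness of CHGA and TH. HES3 and HES4 encode transcriptional repressors of the HES family, SOX21 a SOXB factor, and DLK1 a membrane protein related to NOTCH ligands. HES4 had 46.6, 6.26 and 20.5 TPM, HES3 71.2, 11.8 and 33.4, SOX21 12.2, 1.84 and 8.14, and DLK1 4.04, 0.38 and 1.81. Among the other members, DBH was the 11th nearest to CHGA (distance 0.57) and DDC the 67th (1.02), while CHGB, SCG3 and SCG2 ranked 368, 326 and 877 and PCSK1 and CPE ranked 7507 and 7823. With 3 libraries, many genes have similar profiles, so a small distance is a description of these libraries.

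The other genes of the pathways were taken from 9 lists with 115 genes, of which 52 were detected, 74 were tested and 5 were called for excess spread (6.76%, against 1.59% of all tested genes). The 5 were PCSK1N, MAOA, PHOX2A, TLX2 and EN1, of which only PHOX2A had the order of CHGA and TH. The lists were chosen with earlier results of these data known, so nothing is read from the share called.

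In the prohormone processing list 8 of 10 genes were detected and 1 of 10 tested genes was called. PCSK1N, which encodes proSAAS, an inhibitor of PCSK1, had 12.2, 2.24 and 1.87 TPM in replicates 1, 2 and 3 (edgeR adjusted p = 0.00089, and 0.9999 without replicate 1). It was high in replicate 1 alone and so did not have the order of CHGA. Of the 10 tested genes 1 had that order (11.3% of all tested genes). It was VGF, named after its values were seen, with 20.7, 9.26 and 11.3 TPM and not called. PAM, the enzyme that amidates peptide ends, was the most abundant of the list at 150 ± 17.1 TPM, followed by CPD at 24.3 ± 7.50 and PCSK7 at 16.2 ± 2.18 (n = 3). PCSK2, the partner of SCG5, stood at 0.56 ± 0.21 TPM, and QPCT at 0.48 ± 0.17.

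Of 20 genes for granule sorting and release 13 were detected, and edgeR called 0 of 20 (0 at an unadjusted p under 0.05, and 0 with the DESeq2 dispersion trend). The vesicle SNARE gene VAMP2 stood at 60.4, 48.5 and 57.8 TPM. PTPRN2, a granule membrane protein of the phosphatase family, stood at 28.1, 17.9 and 25.3. The related PTPRN was at 0.38 ± 0.07 TPM and RAB27B at 0.18 ± 0.06. Of the 20 genes 6 had the order of CHGA (11.3% of all tested genes).

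For the cofactor of TH, tetrahydrobiopterin, and for amine synthesis, 6 of 10 genes were detected and 0 of 8 tested genes were called by edgeR (1 at an unadjusted p under 0.05, and 0 with the DESeq2 trend). The cofactor genes QDPR, PTS and PCBD1 were even between libraries, at 48.1 ± 4.23, 33.3 ± 2.58 and 27.8 ± 1.13 TPM. PNMT, which turns noradrenaline into adrenaline, was at 0.41 ± 0.12 TPM, and TPH2, the neuronal enzyme of serotonin synthesis, at 0.013 ± 0.012.

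Amine transport and breakdown had 2 of 9 genes detected and 1 of 4 tested genes called. MAOA, which breaks down monoamines, had 3.58, 13.1 and 7.80 TPM (edgeR adjusted p = 0.016, not called without replicate 1 at 0.17 or without replicate 2 at 0.9997). It was lowest in replicate 1 and highest in replicate 2, the reverse of the order of TH. CYB561, the granule cytochrome that renews ascorbate for DBH, stood at 10.5 ± 1.6 TPM. The vesicular transporter SLC18A2 stood at 0, 0.04 and 0.12 TPM and the dopamine transporter SLC6A3 at 0.03, 0.01 and 0.03. Both were thus near 0 in the same libraries that held reads of TH, DDC and DBH. The related SLC18A1 had 0.25, 0.03 and 0.2 TPM, in the order of TH, and the noradrenaline transporter SLC6A2 had 0.01, 0.25 and 0.06, highest in replicate 2. SLC18A1 and SLC6A2 were named after their values were seen and were too low to be tested.

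Catecholamine receptors were detected in 0 of 14 cases, and edgeR called 0 of 5 tested genes (0 at an unadjusted p under 0.05, and 0 with the DESeq2 trend). ADRA2C was the highest at 1.24 ± 0.51 TPM, with DRD2 at 0.71 ± 0.27 and ADRA2A at 0.68 ± 0.23, and DRD3 and DRD5 had 0 counts, with 3 counts worth at most 0.083 and 0.070 TPM. Of 25 precursors of neuropeptides and hormones 5 were detected, and edgeR called 0 of 6 tested genes (0 at an unadjusted p under 0.05, and 0 with the DESeq2 trend). TAC1, the precursor of substance P, led with 22.4, 51.3 and 43.8 TPM, followed by NMU with 44.2, 33.5 and 39.8 and NMB with 12.7, 10.1 and 11.3. CARTPT and GCG had 0 counts (3 counts would be at most 0.245 and 0.256 TPM). TAC1 and NMU had nearly the same mean, 39.19 and 39.17 TPM. TAC1 was lowest in replicate 1 (56.1% of all tested genes), where CHGA was highest. NMU and NMB were the 2 of 6 tested genes with the order of CHGA (11.3% of all tested genes).

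Sympathoadrenal factors had 6 of 10 genes detected and 2 of 7 tested genes called. PHOX2A, a homeodomain factor of noradrenergic and autonomic neurons, had 29.6, 8.09 and 18.8 TPM in replicates 1, 2 and 3 (edgeR adjusted p = 0.0069, and 0.24 and 0.92 without replicate 1 and without replicate 2). This is the order of TH and DBH. TLX2, a homeobox gene of autonomic ganglia and crest, had 2.7, 1.00 and 4.98 TPM (adjusted p = 0.0073 in edgeR, and 0.9997 without replicate 2). TFAP2B had 51.2, 65.3 and 60.3 TPM and GATA3, named after its values were seen and too low to be tested, had 0.05, 0.84 and 0.19. TFAP2B and GATA3 were highest in replicate 2. The undetected factors included ISL1 at 0.28 ± 0.07 and HAND2 at 0, 0 and 0.04 TPM. Of the 7 tested factors 4 were lowest in replicate 2 (21.7% of all tested genes) and 3 had the order of TH (11.3% of all tested genes).

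Midbrain dopamine factors had 4 of 9 genes detected and 1 of 6 tested genes called. EN1 had 64.8, 35.8 and 17.2 TPM (edgeR adjusted p = 0.00021, and 0.54 without replicate 3), EN2 100.1, 76.8 and 57.0, and LMX1B 11.6, 28.1 and 14.1. None of these 3 had the order of TH, which 1 of the 6 tested genes had: NR4A2, a factor of dopamine neurons chosen after its values were seen, with 1.6, 1.0 and 1.39 TPM. FOXA2 had 0 counts (3 counts would be at most 0.067 TPM) and PITX3, a factor of mature midbrain dopamine neurons, stood at 0.07, 0.07 and 0 TPM. The REST repressor complex, known to silence neuronal and granule genes outside neurons, was detected in 8 of 8 cases with 0 of 8 called by edgeR (0 at an unadjusted p under 0.05, and 0 with the DESeq2 trend). Its most abundant genes HDAC2, KDM1A and HDAC1 stood at 424 ± 23.8, 333 ± 21.1 and 127 ± 18.0 TPM.

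**Figure D5:**
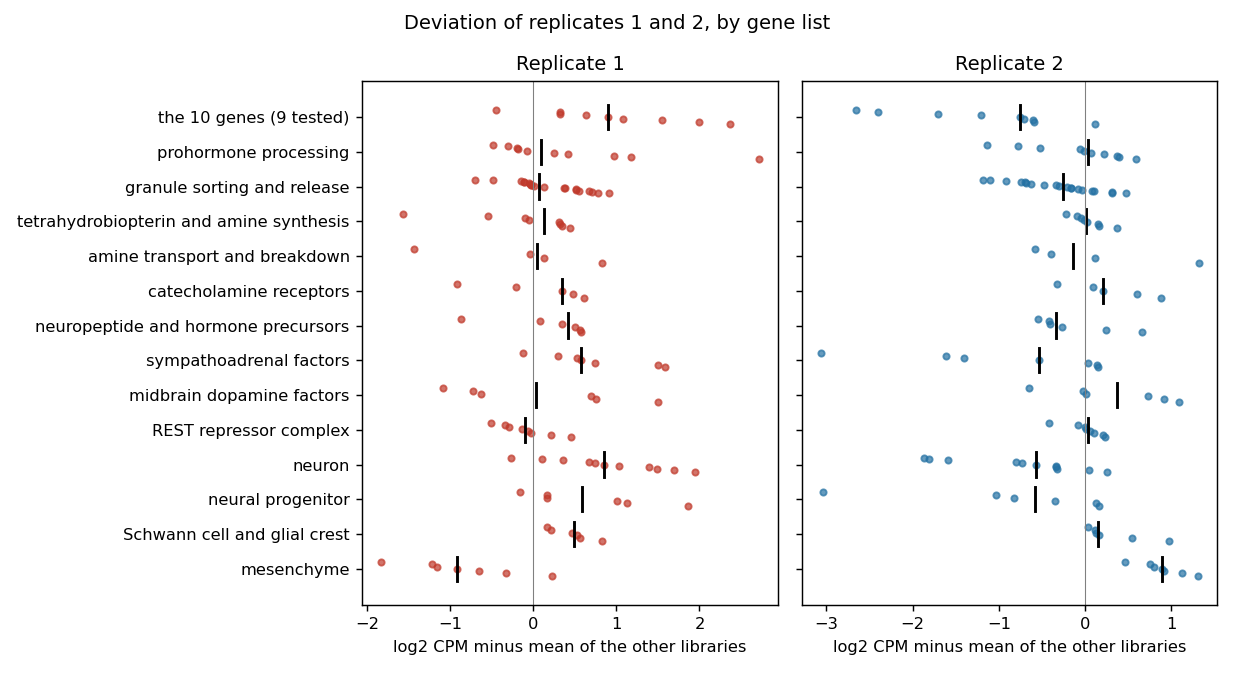
Log2 CPM of replicate 1 (left) and replicate 2 (right) minus the mean of the other libraries, for each tested gene of each list, with the list median as a black bar. The members and the neuron markers have the highest medians in replicate 1 (0.89 and 0.85). The median of the mesenchyme markers lies on the opposite side in both panels.

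Markers of other cell types moved with the libraries too. All 11 neuron markers were detected, none was at 0, and their summed level was 1216, 757 and 690 TPM in replicates 1, 2 and 3. Of these 11, 8 were highest in replicate 1 (24.8% of all tested genes) and 6 were lowest in replicate 2 (21.7% of all tested genes). The order of CHGA was held by 5 (11.3% of all tested genes), and 3 were called by edgeR (1.59% of all tested genes). NEFM and TUBB3 made up most of the sum and did not have the order of CHGA. STMN2, a growth cone gene, had 14.4, 3.61 and 6.42 TPM (edgeR adjusted p = 0.0049) and the RNA-binding protein gene ELAVL4 had 8.26, 2.03 and 5.06 (edgeR adjusted p = 0.0088), in the order of CHGA and TH. NEFM had 485, 241 and 176 TPM (edgeR adjusted p = 0.0050), while TUBB3 had 478, 324 and 323 and GAP43 64.0, 68.1 and 47.2. The STMN2 and ELAVL4 calls were lost without replicate 1 and without replicate 2, and that of NEFM was lost without any 1 of the 3 libraries.

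The 7 mesenchyme markers were all detected and none was at 0. They summed to 618, 1311 and 918 TPM. Of the 7, 6 were lowest in replicate 1 (56.1% of all tested genes) and 6 were highest in replicate 2 (31.8% of all tested genes). CHGA and TH were highest in replicate 1 and lowest in replicate 2. COL1A1 had 4.62, 18.3 and 12.9 TPM (edgeR adjusted p = 0.0097, and 0.9997 without replicate 2) and PDGFRA 4.92, 18.1 and 19.0 (edgeR adjusted p = 0.00032, and 0.9999 without replicate 1). COL1A2, PRRX1 and TWIST1 were the most abundant, at 278 ± 103, 206 ± 108 and 189 ± 48.6 TPM. Of the 7 neural progenitor markers 5 were detected and none was at 0 in every library, and they summed to 2245, 2426 and 2081 TPM. HES5 had 6.76, 0.72 and 5.66 TPM (edgeR adjusted p = 0.0034, and 0.9997 without replicate 2) and MSI1 77.0, 68.3 and 90.9. VIM made up most of that sum. Taken by gene, 3 of the 6 tested progenitor markers had the order of CHGA (11.3% of all tested genes). They were HES5 and, chosen after their values were seen, SOX2 with 97.8, 46.3 and 63.4 TPM and SOX1 with 8.16, 3.28 and 5.19. The list median was 0.59 log2 CPM in replicate 1 and -0.58 in replicate 2 against the mean of the other libraries. Schwann cell and glial crest markers, detected in 6 of 6 cases, summed to 114, 118 and 71.3 TPM. All were lowest in replicate 3 (22.2% of all tested genes). They were called by edgeR in 0 of 6 cases (2 at an unadjusted p under 0.05, and 0 with the DESeq2 trend). Of these markers SOX10, a crest and glial factor, stood at 22.2 ± 7.0 TPM. The part of the neuron, progenitor and mesenchyme markers in the levels of the 10 genes was not tested.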

How the data were processed

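Per the file headers, each library has a deposited RSEM gene table with expected counts, TPM, FPKM and mean transcript lengths. The build is GRCh38 and the tools listed are RSEM 1.3.1, STAR 2.7.11a and Trim Galore 0.6.10, per the submitters' processing notes, listed without roles. Strandedness and the annotation release were not given in the sources used here. Each deposited expected count is an estimate that divides reads shared between genes and is not normalized. TPM, as deposited, divides by effective length and has an equal total in all libraries. Deposited FPKM values served only as an alternative.

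Expected counts were rounded to whole numbers, filtered with filterByExpr and scaled by TMM in edgeR 4.0.16 (R 4.3.3). Excess spread was tested by the residual deviance of an intercept-only fit at the trended dispersion (2 degrees of freedom), with Benjamini-Hochberg adjustment over 17046 genes at 0.05. The test was checked on simulated data. Log2 CPM used a prior count of 2. DESeq2 1.42.0 gave alternatives. Python 3.11.15, pandas 2.3.3, scipy 1.17.1 and statsmodels 0.14.6 were used. Coordinates are 1-based, from RefSeq (GRCh38.p14), and a gene's span and its promoter window come from separate tables, which can use different starts.

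The members and lists were chosen with earlier results of these data known. The text names all members, from each list the 3 genes of highest mean TPM, up to 3 called genes of smallest adjusted p and up to 2 undetected genes of lowest mean TPM, and the 5 genes nearest to CHGA and to TH. A few genes that this rule takes in do not appear in the text and are not reported here.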

Additional observations from a re-analysis of the deposited data

How the results depend on the processing

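CHGA and TH were called for excess spread with DESeq2 size factors, with the DESeq2 dispersion trend and without the filter on low counts. Leaving out each replicate in turn, which keeps 1 degree of freedom, gave 0 to 2 members called, with 0 without replicate 2 (1 at an unadjusted p under 0.05 in edgeR), 2 (without replicate 2), 3 (without replicate 1) or 4 (without replicate 3) pathway genes against 5, and 95 to 117 of all genes against 271, where fewer libraries lower the power. At a TPM minimum of 0.5, 9 members were detected, and at a minimum of 5, 3 members and 33 pathway genes against 52. Without 1 replicate, 5 to 8 members were detected, with 8 without replicate 2. The median member deviation of replicate 3, 0.16, was -0.64 without replicate 2 and 0.88 without replicate 1, since it then became a difference of 2 libraries. It kept its sign under the other alternatives, and the medians of replicates 1 and 2 kept theirs under all of them. With a length trend removed, the medians of replicates 1, 2 and 3 were 0.95, -0.74 and 0.19. The number of members highest in replicate 2 was 0 in CPM against 1 in TPM. A count of members in the order of CHGA in CPM and FPKM was added after the data were seen. No paired analysis was possible because the labels give 1 group. TH in replicate 2 and SCG5 in replicate 1 rest on 21 and 1 counts, and their ratios have the widest counting intervals of the 10 members.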
